A study of Mus musculus with 32 samples.

Results

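Pou5f1, Sox2, Klf4 and Myc are the 4 transcription factor genes whose joint expression can turn a somatic cell into an induced pluripotent stem cell. They were followed by their own rows through every deposited UMI table of a single-cell study of mouse reprogramming, as 4 of 24421 genes in the tables, of which 18897 had at least 1 UMI. A UMI, or unique molecular identifier, marks 1 captured transcript. Barcodes that the authors list as feeder cells were left out of the main counts, which removed 684 of 8334 barcodes and kept 7650 cells. All 4 genes passed the filter on low counts, so each was tested in every comparison between groups.

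The study asked how mouse embryonic fibroblasts (MEFs) change while they are reprogrammed in media that differ in 3 additions. Cells were captured in droplets and the 3′ ends of their transcripts were counted in 32 libraries, 2 for each of 16 groups. The reprogramming protocol gives 2 µg/mL doxycycline, cultures plated on irradiated MEFs, and an ESC medium with serum and leukaemia inhibitory factor. The letters in the group names are read here as A for ascorbic acid at 50 µg/mL, S for the DOT1L inhibitor SGC0946 at 5 µM, both on day 0, and 2 for 2i, the pair of kinase inhibitors CHIR-99021 and PD-0325901, added 12 h later. The groups with all 3 additions are A2S at days 2, 4 and 6, and those that lack 1 addition are A2, S2 and AS at days 4 and 6. MEFs in FBS medium with 2 µg/mL doxycycline and none of the 3 additions named were taken at days 3, 6, 9 and 12. The V6.5 embryonic stem cell (ESC) line was sampled after 2 days in A2S and untreated, and the starting MEFs were sampled untreated. The labels name no strain or doxycycline-driven construct of the MEFs. Whether transcripts of induced copies of the 4 genes are counted in these rows, beside those of the endogenous genes, is not given in the sources used here. A count near 0 in these rows therefore does not show that a cell lacked the induced factor.

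Pou5f1 (Oct4) is a POU-domain factor and Sox2 an HMG-box factor, and in ESCs they bind side by side at composite sites near many genes of the pluripotent state, Nanog among them and their own genes too. Klf4 is a zinc-finger factor of the Krüppel-like family that acts with them and is also known from epithelial cells. Myc is a basic helix-loop-helix factor that pairs with Max at E-boxes and is known for genes of ribosome synthesis and metabolism in dividing cells.

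The promoter windows of the members are shown because Pou5f1 and Sox2 are at 0 or close to it in fibroblasts while Klf4 and Myc are not, and that of Nanog because a Nanog UMI is used below to mark cells. Each window is from RefSeq on GRCm38.p6, runs 5′ to 3′ on the gene's strand, and covers 250 bases before to 50 bases after the annotated start. The first window is used for Pou5f1 and Nanog, which have 2 in the table; Myc has none there. Pou5f1 is at chr17:35505782-35506081 (plus strand), Sox2 at chr3:34649745-34650044 (plus), Klf4 at chr4:55532426-55532725 (minus) and Nanog at chr6:122707239-122707538 (plus). Capitals mark matches to the motifs described next.
Pou5f1: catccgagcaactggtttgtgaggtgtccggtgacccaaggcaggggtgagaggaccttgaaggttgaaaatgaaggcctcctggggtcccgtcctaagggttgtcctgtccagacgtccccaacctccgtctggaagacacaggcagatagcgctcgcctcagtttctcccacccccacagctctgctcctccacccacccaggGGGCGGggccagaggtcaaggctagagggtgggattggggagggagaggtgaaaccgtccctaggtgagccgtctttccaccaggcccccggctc
Sox2: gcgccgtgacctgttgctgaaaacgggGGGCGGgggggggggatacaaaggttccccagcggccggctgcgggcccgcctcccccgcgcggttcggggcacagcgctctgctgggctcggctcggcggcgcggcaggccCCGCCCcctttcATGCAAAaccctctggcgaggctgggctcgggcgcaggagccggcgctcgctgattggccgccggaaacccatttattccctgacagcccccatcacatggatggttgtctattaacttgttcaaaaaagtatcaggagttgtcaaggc
Klf4: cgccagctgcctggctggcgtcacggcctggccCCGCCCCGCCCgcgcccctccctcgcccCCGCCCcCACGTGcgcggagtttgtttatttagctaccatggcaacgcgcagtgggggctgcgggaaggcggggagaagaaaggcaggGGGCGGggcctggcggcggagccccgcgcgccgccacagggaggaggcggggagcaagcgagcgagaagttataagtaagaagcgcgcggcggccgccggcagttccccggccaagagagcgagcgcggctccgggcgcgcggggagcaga
Nanog: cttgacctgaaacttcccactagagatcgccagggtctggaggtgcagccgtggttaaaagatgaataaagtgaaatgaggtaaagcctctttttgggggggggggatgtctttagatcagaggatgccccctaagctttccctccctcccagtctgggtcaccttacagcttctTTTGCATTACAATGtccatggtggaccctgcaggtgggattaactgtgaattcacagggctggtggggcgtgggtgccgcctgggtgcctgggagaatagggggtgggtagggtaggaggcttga
Searched on both strands were the POU motif TTTGCAT, the SOX motif ACAATG, the GC box GGGCGG, the E-box CACGTG and the composite of the POU and SOX motifs on the same strand with any 1 base between them, which contains both. Of 32851 promoter windows of this length, 4.63% hold the POU motif, 12.6% the SOX motif, 35.7% the GC box and 7.15% the E-box. The Pou5f1 window has 1 GC box. The Sox2 window has 2 GC boxes and 1 POU match on the reverse strand, written ATGCAAA. The Klf4 window has 4 GC boxes, of which 2 overlap by 1 base, and 1 E-box. The composite is in 0.00609% of the windows, which are the 2 of Nanog. A match describes the letters of a window and is not evidence that a factor binds there.

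In the annotation of GRCm38 (GENCODE vM21), Pou5f1 spans chr17:35506018-35510772 on the plus strand and Klf4 chr4:55527143-55532466 on the minus strand. Sox2 spans chr3:34650405-34652461 and lies inside Sox2ot, a non-coding gene of the same strand with no exon overlapping it. The Sox2 window printed above ends at chr3:34650044, before this start, so RefSeq and GENCODE place the start of Sox2 differently. Myc spans chr15:61985391-61990374 on the plus strand. Exons of the antisense gene Gm19553, which has no row in the tables, overlap those of Pou5f1, so a read of either could have been counted as Pou5f1 where strand was not used.

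Libraries held 138 to 431 kept cells and 1727490 to 8848775 UMIs, with a median of 5240 to 23194.5 UMIs per cell. Labels fitted the cells' markers: the ESC marker list summed to 3541 to 3563 CPM, the usual depth-scaled unit of counts, in ESCs and 0.166 to 1.17 CPM in MEFs, and the fibroblast list to 13.2 to 14.2 CPM in ESCs and 5351 to 5839 CPM in MEFs. In every group the 2 libraries were further apart than counting alone allows (chi-square per degree of freedom 1.64 to 8.62). Levels below are summed UMIs of a library in CPM of its TMM-scaled depth. Tests are edgeR's quasi-likelihood test over 13229 genes, and called means that p, adjusted by Benjamini-Hochberg over those genes, was under 0.05; no fold was required. In summed counts, fewer cells expressing a gene and less RNA of it per cell cannot be told apart. 34 barcodes occurred in 2 libraries, 1 of them within a group.

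Pou5f1 and Sox2 were ESC genes in these data, while Klf4 and Myc were measured in every library. In ESCs, Pou5f1 was at 105 and 72.3 CPM, Sox2 at 726 and 618 CPM, Klf4 at 242 and 229 CPM and Myc at 49.8 and 55.1 CPM. In MEFs, Pou5f1 had no UMI in either library, Sox2 was at 0.166 and 0.778 CPM from 1 and 6 UMIs, Klf4 at 100 and 80.0 CPM and Myc at 174 and 174 CPM. The groups did not overlap for any of the 4 genes, with Pou5f1, Sox2 and Klf4 high in ESCs and Myc high in MEFs. Here and below, the share of all genes without overlap was not counted.

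In ESCs against MEFs, Pou5f1 was at least 401-fold higher (448 UMIs against a floor of 3 over the MEF group; adjusted p = 2.66e-17). The log2 difference of ESCs over MEFs was 10.26 ± 0.38 (SE) for Sox2 (adjusted p = 6.03e-21), 1.39 ± 0.14 for Klf4 (adjusted p = 3.61e-10) and -1.73 ± 0.16 for Myc (adjusted p = 3.35e-11). All 4 were called in a comparison that called 71.8% of the genes tested, 36.3% as higher and 35.5% as lower. Over all genes tested the median log2 difference was 0.02. With n = 2 libraries a group, such p-values rest on a spread between libraries that was estimated over all 16 groups together. The labels do not say that the libraries of a group came from separate cultures.

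Between ESCs kept 2 days in A2S and untreated ESCs, only Myc of the 4 genes was called. Myc was at 12.9 and 11.6 CPM in A2S ESCs, against 49.8 and 55.1 CPM in ESCs, a log2 difference of -2.10 ± 0.22 (adjusted p = 4.03e-09) with no overlap. Klf4 was at 288 and 296 CPM in A2S ESCs, against 242 and 229 CPM in ESCs. The Klf4 difference of 0.31 ± 0.14 did not pass (adjusted p = 0.0687). Pou5f1 was at 73.1 and 54.4 CPM in A2S ESCs, against 105 and 72.3 CPM in ESCs, and Sox2 at 643 and 590 CPM, against 726 and 618 CPM. The libraries of these groups overlapped for both genes, at -0.47 ± 0.23 for Pou5f1 (adjusted p = 0.0932) and -0.12 ± 0.19 for Sox2 (adjusted p = 0.621). The comparison called 46.7% of the genes, 25.2% higher and 21.5% lower. Pou5f1 passed without ESC replicate B (adjusted p = 0.0466), and also where the listed cells were kept (adjusted p = 0.0198). The 7 fibroblast markers summed to 43.6 to 54.2 CPM in A2S ESCs, against 13.2 to 14.2 CPM in ESCs, with 3 called higher and 1 lower; their part in these differences was not tested.

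**Figure D1:**
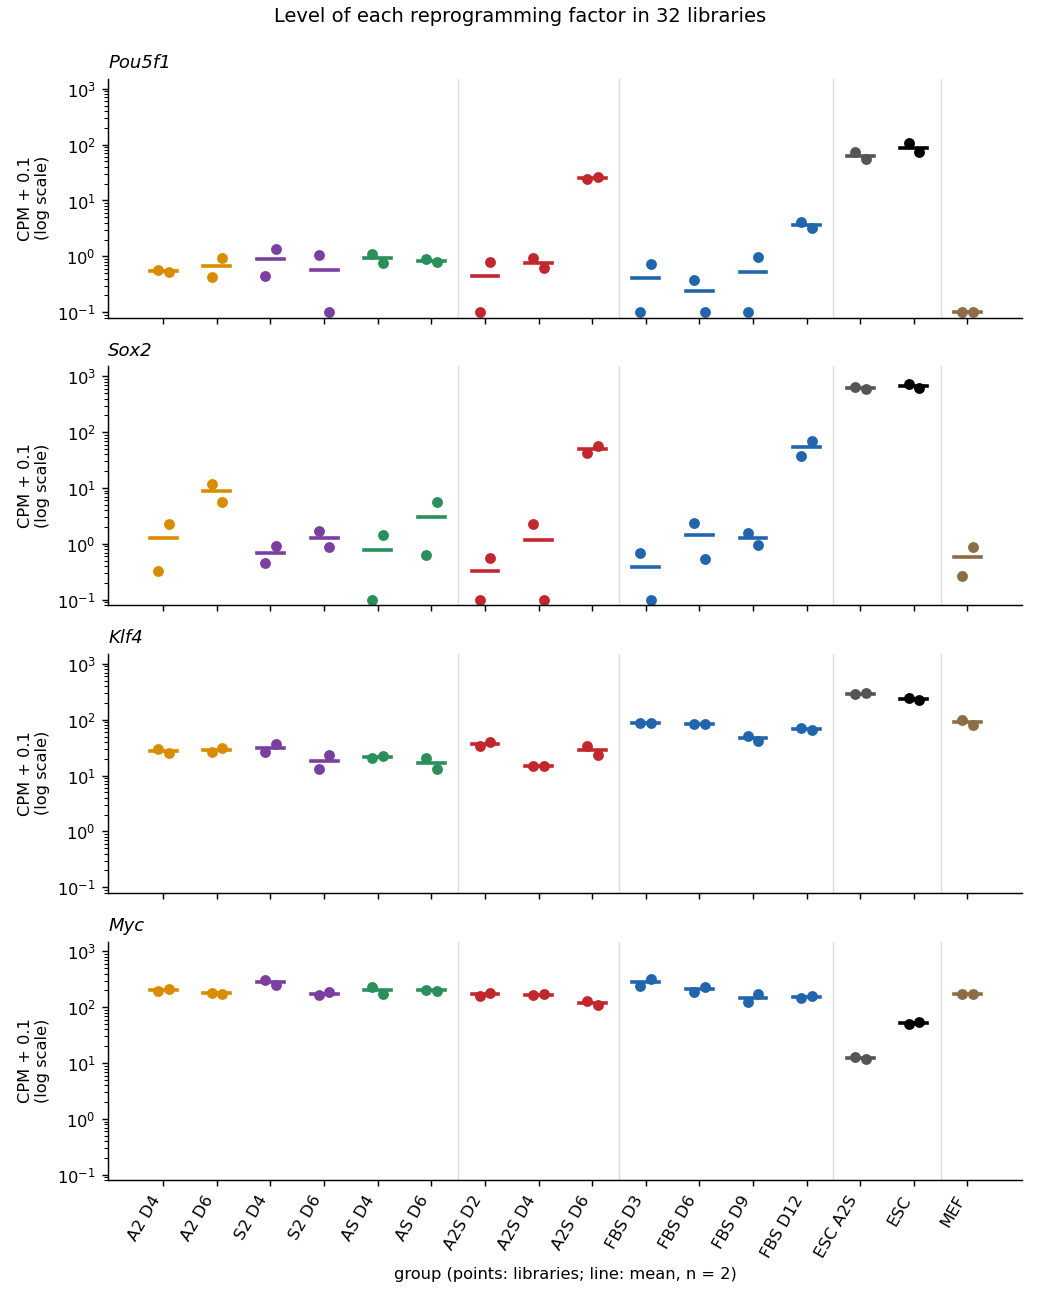
Level of Pou5f1, Sox2, Klf4 and Myc in each of the 32 libraries, as CPM + 0.1 on a log axis, with groups along the horizontal axis. Points are libraries and lines are group means (n = 2). Pou5f1 and Sox2 stand high in both ESC groups and next in A2S day 6 and FBS day 12. Klf4 is lowest in the groups of MEFs in A2S, A2, S2 or AS, and Myc is lowest in A2S ESCs.

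Ordered by group mean over the 16 groups, Pou5f1 stood at 88.7 ± 23.2 CPM (SD) in ESCs and 63.7 ± 13.2 CPM in A2S ESCs, neighbours whose libraries overlapped. Below them came 25.3 ± 1.04 CPM in A2S day 6 and 3.55 ± 0.697 CPM in FBS day 12, each apart from its neighbours. The other 12 groups held at most 3 Pou5f1 UMIs in any library and means of 0 to 0.844 CPM. For Sox2 the order was 672 ± 76.3 CPM in ESCs and 616 ± 37.3 CPM in A2S ESCs, then 53.7 ± 22.0 CPM in FBS day 12 and 49.4 ± 11.1 CPM in A2S day 6. Within each of those pairs the libraries overlapped. A2 day 6 followed at 8.61 ± 4.49 CPM, AS day 6 at 2.97 ± 3.46 CPM, and the remaining groups lay between 0.230 and 1.34 CPM.

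Klf4 was highest in A2S ESCs at 292 ± 5.84 CPM, then in ESCs at 236 ± 9.13 CPM, then in MEFs at 90.1 ± 14.3 CPM and FBS day 3 at 88.1 ± 1.10 CPM, which overlapped. Its lowest mean was 14.7 ± 0.0289 CPM in A2S day 4. The 9 groups of MEFs in A2S, A2, S2 or AS lay between that value and 36.5 ± 3.93 CPM in A2S day 2. Myc ran the other way: FBS day 3 at 281.5 ± 53.8 CPM and S2 day 4 at 281.2 ± 41.7 CPM overlapped at the top, and ESCs at 52.4 ± 3.72 CPM and A2S ESCs at 12.2 ± 0.890 CPM were apart at the bottom. MEFs, at 174 ± 0.336 CPM, sat amid the reprogramming groups for Myc.

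In FBS medium Myc moved early, Klf4 later, and Pou5f1 and Sox2 at the end of the course. Myc was at 174 and 174 CPM in MEFs, 243 and 320 at day 3, 191 and 229 at day 6, 125 and 169 at day 9 and 144 and 161 CPM at day 12. It rose by day 3 against MEFs (log2 0.69 ± 0.13, adjusted p = 9.15e-05), fell by day 6 against day 3 (-0.43 ± 0.14, adjusted p = 0.0145) and again by day 9 against day 6 (-0.50 ± 0.15, adjusted p = 0.0273). At day 12 it did not differ by test from day 9 (0.05, adjusted p = 0.901) or MEFs (-0.19, adjusted p = 0.284). These comparisons called 40.8% of genes at day 3 (19.8% higher, 20.9% lower), 37.8% at day 6 and 9.37% at day 9. The day 6 call was lost without FBS day 3 replicate B (adjusted p = 0.304) or FBS day 6 replicate A (0.202), and the day 9 call without FBS day 6 replicate B (0.222) or FBS day 9 replicate A (0.318). With the listed cells kept, all 3 Myc calls were lost (adjusted p = 0.0684 at day 3, 0.435 at day 6 and 0.0948 at day 9).

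Klf4 was at 100 and 80.0 CPM in MEFs, 88.9 and 87.3 at day 3, 83.2 and 83.1 at day 6, 50.4 and 41.9 at day 9 and 71.0 and 65.2 CPM at day 12. Its fall came at day 9 against day 6 (log2 -0.85 ± 0.18, adjusted p = 0.00284), a call lost without FBS day 9 replicate B (adjusted p = 0.0605). Day 12 stood 0.56 ± 0.20 above day 9 without passing (adjusted p = 0.0576), although the libraries did not overlap and 3 of the alternative settings called it. Day 12 was below MEFs (-0.40 ± 0.17, adjusted p = 0.0429), a call lost without MEF replicate A (0.208), FBS day 12 replicate A (0.0504) or FBS day 12 replicate B (0.140).

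Pou5f1 had 0 and 2 UMIs at day 3, 1 and 0 at day 6, 0 and 2 at day 9 and 7 and 6 at day 12, where its level was 4.04 and 3.05 CPM. Sox2 had 2 and 0 UMIs at day 3, 8 and 1 at day 6, 3 and 2 at day 9 and 66 and 136 at day 12, where its level was 38.1 and 69.2 CPM. Day 12 stood apart from every earlier day for both genes.

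In FBS day 12 against day 9, Sox2 rose by 5.53 ± 0.61 on the log2 scale (adjusted p = 3.29e-07). For Pou5f1 the 13 UMIs of day 12 against 2 of day 9 gave a ratio of 7.74 with a counting interval of 1.75 to 70.7 (adjusted p = 0.0495). That call was lost without any 1 of the 4 libraries: without FBS day 9 replicate A (0.251), FBS day 9 replicate B (0.0602), FBS day 12 replicate A (0.196) or FBS day 12 replicate B (0.0980), and with DESeq2 (0.0772). The comparison called 12.5% of genes, 6.14% higher and 6.37% lower. Against MEFs, FBS day 12 was at least 16.1-fold higher for Pou5f1 (adjusted p = 1.82e-05) and 6.63 ± 0.51 higher on the log2 scale for Sox2 (adjusted p = 1.9e-12), with 54.5% of genes called. Against ESCs, FBS day 12 was lower for Pou5f1 (-4.64 ± 0.37), Sox2 (-3.63 ± 0.24) and Klf4 (-1.79 ± 0.17) and higher for Myc (1.54 ± 0.17), all called beside 66.3% of genes. Macrophage markers summed to 11.5 to 169 CPM in the FBS day 12 libraries and 4.85 to 12.8 CPM in those of day 9; their part in these differences was not tested.

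In the A2S course Klf4 fell first, and UMIs in the rows of Pou5f1 and Sox2 were few before day 6. Klf4 was at 100 and 80.0 CPM in MEFs, 33.7 and 39.2 at day 2, 14.7 and 14.7 at day 4 and 34.1 and 22.8 CPM at day 6. A2S day 2 was below MEFs by -1.30 ± 0.16 on the log2 scale (adjusted p = 5.87e-08), day 4 below day 2 by -1.31 ± 0.23 (adjusted p = 4.4e-05), and day 6 above day 4 by 0.96 ± 0.25 (adjusted p = 0.00447). None of the neighbouring days overlapped with the one before, but day 6 overlapped with day 2. The last of these calls was lost without A2S day 4 replicate A (adjusted p = 0.0639) or A2S day 6 replicate A (0.121).

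Pou5f1 had 0 and 3 UMIs at A2S day 2, 3 and 1 at day 4 and 80 and 81 at day 6, where it reached 24.6 and 26.1 CPM. Sox2 had 0 and 2 UMIs at day 2, 8 and 0 at day 4 and 135 and 178 at day 6, where it reached 41.5 and 57.3 CPM. In A2S day 6 against day 4, Pou5f1 rose by 5.07 ± 0.52 (adjusted p = 1.92e-08) and Sox2 by 5.07 ± 0.53 (adjusted p = 1.92e-08) on the log2 scale. The call rate of this comparison was 24.6%, with 10.8% of genes higher and 13.8% lower. Epithelial markers summed to 695 to 759 CPM at A2S day 6, against 208 to 264 CPM at day 4; their part in these differences was not tested.

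Myc was at 159 and 180 CPM at A2S day 2, 163 and 172 at day 4 and 128 and 108 CPM at day 6. It was not called at day 2 against MEFs (log2 -0.04, adjusted p = 0.867) or at day 4 against day 2 (-0.02, adjusted p = 0.952). At day 6 it fell against day 4 (-0.50 ± 0.15, adjusted p = 0.0127), a call lost without A2S day 4 replicate A (adjusted p = 0.0583), A2S day 4 replicate B (0.0944) or A2S day 6 replicate B (0.187). The share of all genes called was 49.8% at day 2 against MEFs (25.6% higher, 24.2% lower) and 29.5% at day 4 against day 2.

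A2S day 6 thus differed from both ends of the design in all 4 genes. Against MEFs, Pou5f1 was at least 116-fold higher (adjusted p = 1.64e-13), Sox2 6.49 ± 0.49 higher on the log2 scale, Klf4 -1.65 ± 0.17 and Myc -0.56 ± 0.14 lower, with 66.1% of genes called. Against ESCs, A2S day 6 was lower by -1.80 ± 0.25 for Pou5f1, -3.77 ± 0.23 for Sox2 and -3.04 ± 0.17 for Klf4, and higher by 1.17 ± 0.17 for Myc, with 54.5% of genes called. Against FBS day 6, with 1 Pou5f1 UMI, the 161 UMIs of A2S day 6 gave a ratio of 148 (counting interval 26.2 to 5891). In that comparison Sox2 was 4.97 ± 0.51 higher, Klf4 -1.54 ± 0.19 and Myc -0.82 ± 0.15 lower, beside 52.7% of genes called. These comparisons share the A2S day 6 libraries, and several share the MEF or ESC libraries.

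Leaving out any 1 addition left Pou5f1 under 1 CPM at day 6, whereas Sox2 stood at part of its A2S level in A2. Pou5f1 was at 0.327 and 0.815 CPM in A2 day 6, 0.957 and 0 CPM in S2 day 6 and 0.783 and 0.676 CPM in AS day 6, against 24.6 and 26.1 CPM in A2S day 6. Sox2 was at 11.8 and 5.43 CPM in A2, 1.59 and 0.786 CPM in S2 and 0.522 and 5.41 CPM in AS, against 41.5 and 57.3 CPM in A2S. No library of the 3 reduced media overlapped with those of A2S for either gene. The ESC marker list summed to 21.3 to 25.0 CPM in A2 day 6, 94.4 to 106 CPM in S2, 88.4 to 145 CPM in AS and 620 to 724 CPM in A2S.

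At day 6 the log2 difference in Pou5f1 was -5.33 ± 0.51 for A2 against A2S (adjusted p = 1.51e-09) and -5.03 ± 0.49 for AS against A2S (adjusted p = 1.28e-09). In S2, 3 UMIs against 161 in A2S gave a ratio of 0.0209 with a counting interval of 0.00426 to 0.0621 (adjusted p = 1.66e-08). For Sox2 the difference from A2S was -2.56 ± 0.35 in A2 (adjusted p = 1.02e-06), -5.28 ± 0.54 in S2 (adjusted p = 2.24e-08) and -4.19 ± 0.44 in AS (adjusted p = 4.59e-09). The 3 comparisons share the A2S day 6 libraries and called 30.8% of genes for A2, 16.1% for S2 (8.35% higher, 7.73% lower) and 38.6% for AS.

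Myc was higher in every reduced medium than in A2S at day 6. It was at 182 and 172 CPM in A2, 163 and 186 CPM in S2 and 204 and 198 CPM in AS, against 128 and 108 CPM in A2S, with no overlap. The log2 difference from A2S was 0.58 ± 0.15 in A2 (adjusted p = 0.00247), 0.56 ± 0.15 in S2 (adjusted p = 0.00765) and 0.77 ± 0.14 in AS (adjusted p = 7.77e-05). The A2 call was lost without A2S day 6 replicate B (0.0710), and the S2 call without A2S day 6 replicate B (0.132) or S2 day 6 replicate B (0.105).

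Klf4 at day 6 was at 26.5 and 31.0 CPM in A2, 13.1 and 23.2 CPM in S2 and 20.6 and 13.2 CPM in AS, against 34.1 and 22.8 CPM in A2S. The A2 and S2 libraries overlapped with those of A2S. A2 did not differ by test (log2 0.02, adjusted p = 0.981). S2 was lower by -0.69 ± 0.24 (adjusted p = 0.0433) and AS by -0.73 ± 0.23 (adjusted p = 0.0116). Both calls depended on single libraries: S2 lost it without A2S day 6 replicate A (0.454) or S2 day 6 replicate A (0.546), and AS without A2S day 6 replicate A (0.253) or AS day 6 replicate B (0.148).

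At day 4 the order differed. Klf4 was at 29.6 and 24.9 CPM in A2, 26.1 and 37.1 CPM in S2 and 20.4 and 22.8 CPM in AS, all above the 14.7 and 14.7 CPM of A2S. The difference passed for A2 (log2 0.91 ± 0.25, adjusted p = 0.0103) and S2 (1.09 ± 0.25, adjusted p = 0.00571) but not for AS (0.57, adjusted p = 0.0932). A2 lost the call without A2S day 4 replicate A (0.125) or A2 day 4 replicate A (0.179), and S2 without A2S day 4 replicate A (0.115) or S2 day 4 replicate B (0.119). Myc was at 194 and 208 CPM in A2, 311 and 252 CPM in S2 and 233 and 175 CPM in AS, against 163 and 172 CPM in A2S. Of these only S2 was called (0.75 ± 0.14, adjusted p = 0.000865); AS (0.27, adjusted p = 0.171) was called without AS day 4 replicate B (0.0302). Pou5f1 and Sox2 had at most 8 UMIs in any day 4 library and were called in none of the 3 media. At day 4, 14.4% of genes were called for A2, 6.55% for S2 and 30.0% for AS.

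Within the reduced media, day 6 against day 4 had 3 calls on the 4 genes. In A2 the 4 genes had 1 call: Sox2, with 36 and 20 UMIs at day 6 and 1 and 5 at day 4, rose by 3.16 ± 0.79 on the log2 scale (adjusted p = 0.00658). That call was lost without A2 day 4 replicate A (0.232) or A2 day 6 replicate A (0.111), and with DESeq2 (0.0625). In S2, Klf4 fell by 0.82 on the log2 scale (SE 0.24, adjusted p = 0.0202) and Myc by 0.69 (SE 0.14, adjusted p = 0.00116). The S2 call was lost for Klf4 without S2 day 4 replicate B (0.258) or S2 day 6 replicate A (0.455), and for Myc without S2 day 4 replicate A (0.0537) or S2 day 6 replicate A (0.0526). In AS none of the 4 was called. The background was 14.2% of genes called in A2, 13.0% in S2 and 22.1% in AS.

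The difference between those time differences was tested directly, as the day 4 to day 6 change in a reduced medium minus that in A2S. For Pou5f1 it was -5.15 ± 1.33 in AS (adjusted p = 0.0103), -5.56 ± 1.50 in S2 (adjusted p = 0.0333) and -4.70 ± 1.60 in A2 (adjusted p = 0.0678), on the log2 scale. For Klf4 it was -1.78 ± 0.34 in S2 (adjusted p = 0.00364), -1.30 ± 0.34 in AS (adjusted p = 0.0119) and -0.90 ± 0.32 in A2 (adjusted p = 0.0870). For Sox2 it was -1.92 in A2 (adjusted p = 0.472), -4.00 ± 2.18 in S2 (adjusted p = 0.362) and -3.59 ± 1.56 in AS (adjusted p = 0.146), none of them called. Myc was called in none of the 3 (0.32 in A2, -0.19 in S2 and 0.50 in AS; adjusted p = 0.382, 0.706 and 0.114). This test called 7.91% of genes for A2, 3.39% for S2 and 10.9% for AS. With 1 library left out, the genes called numbered 482 to 832 for A2, against 1047 with all libraries, 128 to 406 for S2, against 448, and 831 to 2106 for AS, against 1440.

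Day 4 holds 3 to 5 Pou5f1 UMIs a group, and the calls on Pou5f1 rest on them. The S2 call was lost in 7 of 8 fits that left out 1 library: without A2S day 4 replicate A (0.0744), A2S day 4 replicate B (0.0678), A2S day 6 replicate A (0.0509), A2S day 6 replicate B (0.0584), S2 day 4 replicate A (0.0569), S2 day 4 replicate B (0.388) or S2 day 6 replicate B (0.0697). The AS call on Pou5f1 was lost without AS day 4 replicate B (0.0862). The AS call on Klf4 was lost without A2S day 4 replicate A (0.0598), A2S day 6 replicate A (0.0933), AS day 4 replicate B (0.0848) or AS day 6 replicate B (0.0573). The S2 call on Klf4 held in each of its 8 fits.

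**Figure D2:**
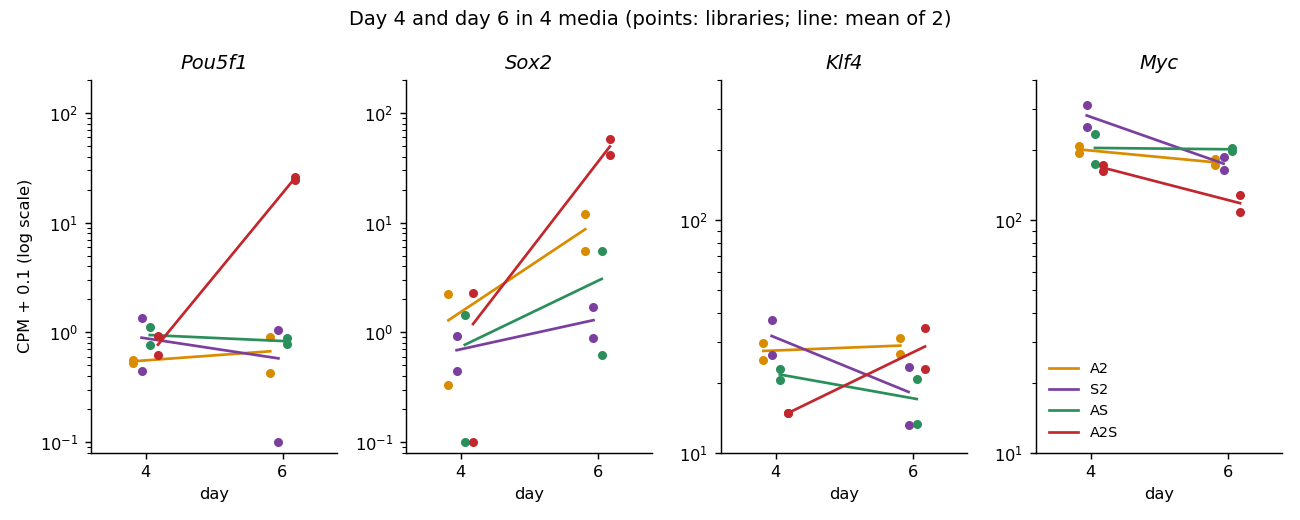
Day 4 and day 6 levels of the 4 genes in A2, S2, AS and A2S, as CPM + 0.1 on a log axis. Points are libraries (n = 2 a group) and lines join group means. Pou5f1 reaches 24.6 and 26.1 CPM at day 6 in A2S and stays under 1 CPM at day 6 in the 3 reduced media, and the day 6 Myc libraries of A2S lie below those of the others.

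Shares of cells with a UMI of Pou5f1 or Sox2 were lower in A2S day 6 than in ESCs; at these depths such a share is not that of cells expressing the gene. A Pou5f1 UMI was found in 19.7 ± 1.02% (SD, n = 2) of A2S day 6 cells, 2.93 ± 0.322% of FBS day 12 cells, 46.3 ± 0.130% of A2S ESCs and 70.6 ± 12.8% of ESCs, against 0% of MEFs. A Sox2 UMI was found in 14.0 ± 0.553%, 7.19 ± 0.996%, 92.0 ± 0.777% and 92.6 ± 1.84% of the same groups in that order, against 0.400 ± 0.0908% of MEFs. MEFs, which serve as the cell type that lacks both genes, were the deeper libraries, with a median of 22796 and 19102 UMIs per cell against 12707.5 and 10864.5 in A2S day 6. FBS day 12 had medians of 9018 and 9457.5, A2S ESCs 10112 and 12251, and ESCs 16461.5 and 14853.

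Thinned to 1000 UMIs a cell, which removed 4 shallower cells from A2S day 6 and none from MEFs, ESCs or FBS day 12, the share with Pou5f1 was 3.31 ± 0.169% in A2S day 6, 0.365 ± 0.0770% in FBS day 12 and 9.18 ± 2.48% in ESCs, against 0% in MEFs. The thinned share with Sox2 was 4.75 ± 0.623% in A2S day 6, 3.18 ± 0.846% in FBS day 12 and 46.3 ± 1.84% in ESCs, against 0.0851 ± 0.0954% in MEFs. So at equal depth the order of these groups was the same as in summed counts for Pou5f1. For Sox2, FBS day 12 stood above A2S day 6 in mean CPM and below it in share of cells.

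For Klf4 and Myc the share of cells with a UMI varied widely between groups. At 1000 UMIs a cell, Klf4 was found in 6.78 ± 0.433% of MEFs, 3.19 ± 0.334% of cells at A2S day 2, 1.70 ± 0.0591% at day 4 and 3.31 ± 1.04% at day 6. It was found in 23.1 ± 0.0320% of A2S ESCs, against 19.9 ± 0.255% of ESCs. Myc was found in 10.8 ± 1.77% of A2S day 6 cells, against 13.0 ± 0.249% of MEFs, and in 1.12 ± 0.146% of A2S ESCs, against 4.92 ± 0.456% of ESCs. Unthinned, the Myc share was 10.3 ± 0.246% in A2S ESCs, against 43.3 ± 1.76% in ESCs.

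The Sox2 UMIs of A2S day 6 were concentrated in few cells. The tenth of cells with the most Sox2 held 91.9% and 94.4% of its UMIs in the A2S day 6 libraries, against 26.6% and 26.7% in ESCs. Cells with Sox2 averaged 4.09 and 5.09 UMIs of it in A2S day 6, with at most 9 and 14, against 13.8 and 10.9 in ESCs, with at most 48 and 43. For Pou5f1 the means were 1.70 and 1.65 UMIs in A2S day 6, against 2.28 and 1.95 in ESCs.

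Cells with both genes were more frequent in A2S day 6 than the product of the shares. Of 230 and 258 cells, 47 and 49 had Pou5f1, 33 and 35 had Sox2, and 20 and 22 had both, where the product of the shares gives 6.74 and 6.65. In FBS day 12, of 185 and 190 cells, 5 and 6 had Pou5f1, 12 and 15 had Sox2, and 3 and 3 had both, where the product gives 0.324 and 0.474. In ESCs 105 and 98 cells had both, where the product gives 100.4 and 94.8, and in A2S ESCs 170 and 134, where it gives 158 and 127. In A2 day 6, 8 and 10 cells had Sox2, 1 and 1 had Pou5f1, and none had both.

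**Figure D3:**
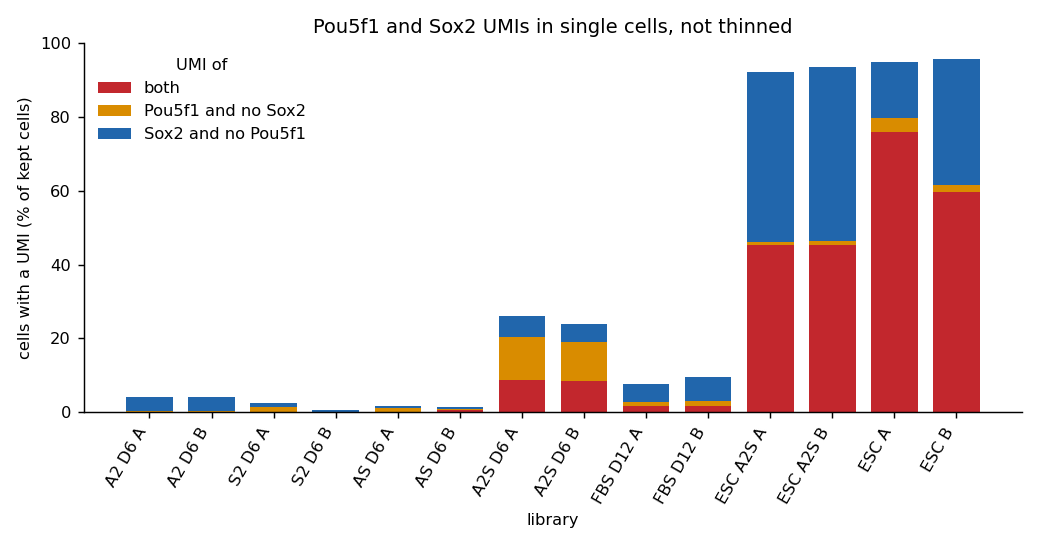
Percent of kept cells with a UMI of both Pou5f1 and Sox2, of Pou5f1 only and of Sox2 only, stacked, in 14 libraries. In both ESC groups most of the bar is cells with both or with Sox2 only, and in A2S day 6 cells with Pou5f1 only form the largest part of the bar.

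The balance of the 2 genes also differed between groups. Pou5f1 made up 37.2% (exact 95% interval 30.7 to 44.0) and 31.3% (25.7 to 37.3) of the Pou5f1 and Sox2 UMIs in A2S day 6. In ESCs its share was 12.6% (11.2 to 14.2) and 10.5% (9.13 to 11.9). In A2S ESCs it was 10.2% (9.07 to 11.4) and 8.44% (7.35 to 9.65), and in FBS day 12 9.59% (3.94 to 18.8) and 4.23% (1.57 to 8.97). The intervals of both A2S day 6 libraries lay above those of every ESC and FBS day 12 library. They cover counting error only.

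Nanog, a homeobox factor of the pluripotent state, was used to divide the cells of a library into those with and those without a Nanog UMI, in 9 libraries with at least 10 cells in each class. Pou5f1 and Sox2 were found mainly in the Nanog cells of A2S day 6, where levels are CPM of the class's own UMIs. Pou5f1 was at 47.8 and 49.4 CPM in cells with Nanog, against 7.01 and 3.60 CPM in cells without. Sox2 was at 90.1 and 116 CPM in cells with Nanog, against 3.19 and 0 CPM in cells without. The Nanog cells of A2S day 6 held 130 of 135 and 178 of 178 Sox2 UMIs, and 69 of 80 and 76 of 81 Pou5f1 UMIs.

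By cell, 35.7% and 34.9% of the 112 and 126 Nanog cells of A2S day 6 had Pou5f1, against 5.93% and 3.79% of cells without Nanog, and 25.9% and 27.8% had Sox2, against 3.39% and 0%. Median depth was 12369 and 12478.5 UMIs in the Nanog cells, against 12909.5 and 9793 in the others. In FBS day 12 the 22 and 18 Nanog cells had Sox2 at 285 and 609 CPM, against 1.99 and 4.06 CPM in the other cells. Pou5f1 there was at 27.1 and 18.9 CPM in Nanog cells, from 6 and 4 UMIs, against 0.664 and 1.16 CPM.

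Over the 9 libraries Pou5f1 had 160 UMIs in Nanog cells, against 25 in the others, and was higher in Nanog cells in 7 of 9 libraries. Sox2 had 520 UMIs in Nanog cells, against 40, and was also higher in 7 of 9. Of these Nanog-cell UMIs, A2S day 6 held 145 of Pou5f1 and 308 of Sox2, and FBS day 12 held 10 and 192. The other libraries thus rest on few UMIs. Both genes were below the filter on low counts of this fit, which tested 9901 genes and called 49.2% of them. With no filter, the log2 difference was 3.17 ± 0.42 for Pou5f1 (adjusted p = 9.19e-09) and 5.24 ± 0.37 for Sox2 (adjusted p = 1.61e-17). These 2 results were not refitted with RLE factors, DESeq2 or a library left out. The 49.2% belongs to the filtered fit, and the share of genes called with no filter is not given here. Klf4 was higher in Nanog cells in 4 of 9 libraries and Myc in 2 of 9, at -0.01 ± 0.37 (adjusted p = 0.992) and -0.18 ± 0.10 (adjusted p = 0.135).

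For Klf4 the libraries went in opposite directions. In A2S day 6 it was at 38.8 and 35.1 CPM in Nanog cells, against 35.0 and 12.2 CPM in the others, and in FBS day 12 at 90.4 and 198 CPM, against 68.4 and 49.9 CPM. In S2 day 6 it was at 4.68 and 4.00 CPM in Nanog cells, against 16.7 and 29.5 CPM, and in AS day 6 at 0 and 10.96 CPM, against 24.2 and 14.4 CPM. In A2 day 6 replicate B, Klf4 and Sox2 had no UMI in the Nanog cells, against 32.7 and 5.73 CPM in the others.

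**Figure D4:**
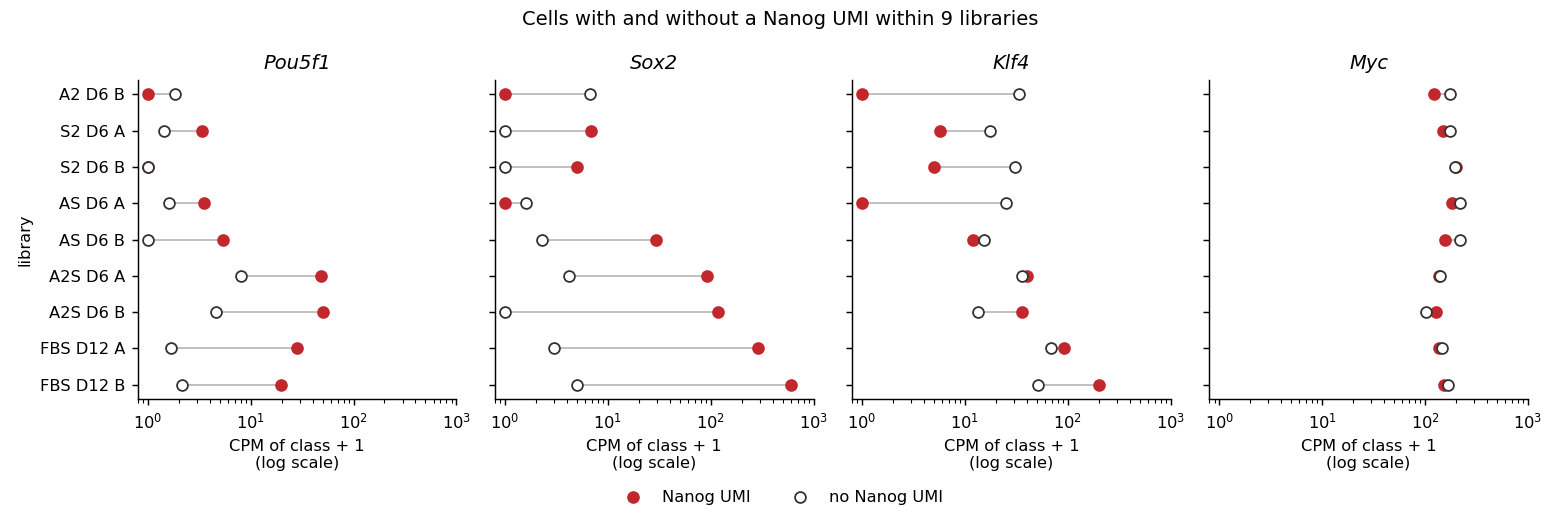
Level of the 4 genes in cells with a Nanog UMI (red) and without (white) in 9 libraries, as CPM of the class + 1 on a log axis. In the A2S day 6 and FBS day 12 libraries the red points lie to the right for Pou5f1 and Sox2, and for Klf4 they lie to the left in both libraries of S2 day 6 and AS day 6.

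Cells with a Nanog UMI were then compared between media, in a comparison added after the data were seen. In the 61 and 45 Nanog cells of S2 day 6, Pou5f1 was at 2.34 and 0 CPM, Sox2 at 5.85 and 4.00 CPM and Klf4 at 4.68 and 4.00 CPM. The 112 and 126 Nanog cells of A2S day 6 had 47.8 and 49.4 CPM of Pou5f1, 90.1 and 116 CPM of Sox2 and 38.8 and 35.1 CPM of Klf4. All 3 genes were called lower in S2 (adjusted p = 1.04e-06 for Pou5f1, 1.49e-06 for Sox2 and 0.000563 for Klf4), by -4.27 ± 0.52 on the log2 scale for Sox2 and -3.01 ± 0.55 for Klf4. Pou5f1 had 2 UMIs in those S2 cells, against 145 in A2S. The Nanog cells of the 2 media thus differed in 3 of the 4 genes, while Myc, at 149 and 198 CPM in S2 and 137 and 127 CPM in A2S, was not called (0.36 ± 0.17, adjusted p = 0.217).

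In the 22 and 28 Nanog cells of AS day 6, Pou5f1 was at 2.51 and 4.38 CPM, Sox2 at 0 and 28.5 CPM and Klf4 at 0 and 10.96 CPM. All were called lower than in A2S (adjusted p = 2.01e-05 for Pou5f1, 0.000111 for Sox2 and 0.00295 for Klf4), with -2.77 ± 0.48 for Sox2 and -2.64 ± 0.61 for Klf4 on the log2 scale. In FBS day 12 Nanog cells, Sox2 was higher than in those of A2S day 6 (2.10 ± 0.27, adjusted p = 1.92e-06), as was Klf4 (1.94 ± 0.35, adjusted p = 0.000224), and Pou5f1 was not called (-1.08 ± 0.46, adjusted p = 0.148). Of 9291 genes tested, 7.18% were called for S2, 13.6% for AS and 10.3% for FBS day 12, all against the same A2S day 6 cells.

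Several of these calls depended on the tool or on 1 library. DESeq2 did not call Sox2 in any of the 3 (adjusted p = 0.0968 for S2, 0.325 for AS and 0.531 for FBS day 12). The Klf4 call was lost for AS without AS day 6 replicate A (0.0929), and for FBS day 12 without FBS day 12 replicate B (0.102).

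Of the Sox2 cells of A2 day 6, 7 and 10 had neither a Nanog nor an Epcam UMI and held 35 and 20 Sox2 UMIs. They were set beside the 186 and 224 other cells without those UMIs. Of the ESC marker list only Sall4 was present in them, with 2 and 2 UMIs. In replicate A their fibroblast markers Col1a1 and Prrx1 stood at 11.1 CPM each, against 458 and 425 CPM in the other cells. In replicate B Col1a1 was at 276 CPM, against 405 CPM, and Prrx1 at 176 CPM, against 509 CPM, while Col3a1 was at 343 CPM in the Sox2 cells, against 181 CPM. Thy1 was at 50.2 CPM, against 169.6 CPM there, and Twist1, Pdgfrb and Postn had 2, 2 and 0 UMIs. In replicate A, Thy1, Col3a1, Twist1, Pdgfrb and Postn had no UMI in the Sox2 cells.

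9 genes were among the 20 that led these cells in both libraries, chosen here from their values and so not tested. They include Igfbpl1 at 433 and 176 CPM, against 10.7 and 3.60 CPM in the other cells, Insm1 at 689 and 477 CPM, against 79.8 and 54.4 CPM, and Mapt at 167 and 150 CPM, against 13.2 and 16.7 CPM. Kit, a receptor tyrosine kinase, was at 322 and 134 CPM, against 19.8 and 15.1 CPM. Tfap2a was at 289 and 150 CPM, against 11.2 and 15.1 CPM. Of the fixed list of 6 neural markers, Sox1, Pax6, Sox3 and Elavl3 had no UMI in these Sox2 cells, Tubb3 had 7 UMIs in replicate A and 0 in replicate B, and Map2 had 1 and 2.

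Members of the same families were described from lists chosen with earlier results of these data known. In ESCs against MEFs, 8 of 13 tested KLF genes were higher and 3 lower (median log2 difference 0.95; 0.02 over all genes tested), 7 and 4 of 12 SOX genes, 4 and 2 of 8 POU genes, and 5 and 1 of 12 genes of the MYC network, beside 36.3% of all genes higher and 35.5% lower. Mycn, the family member known from embryonic cells, was at 566 ± 7.86 CPM (SD) in ESCs, against 4.40 ± 0.352 CPM in MEFs (7.004 ± 0.21, adjusted p = 2.4e-23), opposite in direction to Myc. Klf6 was lower in ESCs (-1.51 ± 0.16, adjusted p = 3.5e-10), unlike Klf4. In A2S ESCs against ESCs, Mycn fell with Myc (185 ± 11.01 CPM, against 566 ± 7.86 CPM; -1.62 ± 0.14, adjusted p = 7.27e-11). Sox11 (-4.18 ± 0.23) and Pou3f1 (-4.90 ± 0.38), known from neural progenitors, fell as well.

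Along the A2S course Klf2, which shares much of the ESC role of Klf4, was at 112 ± 12.5 CPM in MEFs, 22.2 ± 2.16 at day 2, 44.1 ± 3.87 at day 4 and 168 ± 13.0 CPM at day 6. Klf2 was thus lowest at day 2 and ended above MEFs, where Klf4 was lowest at day 4 and ended below them. Klf2 fell at day 2 against MEFs (-2.34 ± 0.19, adjusted p = 1.13e-11) and rose at day 6 against day 4 (1.92 ± 0.19, adjusted p = 6.58e-09). Mycn was at 11.7 ± 0.430 CPM at day 4 and 42.8 ± 5.07 CPM at day 6, and rose at day 6 (1.87 ± 0.25, adjusted p = 1.06e-06) while Myc fell. Sox15, a relative of Sox2, rose at day 6 too (4.81 ± 0.64, adjusted p = 1.93e-06). At day 6 against day 4, 7 of 13 KLF genes rose and none fell, against 2 and 0 of 12 SOX genes, none of 8 POU genes and 3 and 3 of 12 MYC-network genes, beside 10.8% of all genes higher and 13.8% lower.

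In FBS medium Klf2 fell at day 3 against MEFs (-3.13 ± 0.22, adjusted p = 6.95e-13), where Klf4 was not called (-0.03, adjusted p = 0.926). At day 12 against day 9, Klf2 (2.41 ± 0.31, adjusted p = 3.42e-06), Mycn (2.64 ± 0.39, adjusted p = 3.22e-05) and Pou3f1 (1.25 ± 0.36, adjusted p = 0.0215) rose. The POU genes called higher there numbered 2, against 1 with DESeq2 and 1 with the listed cells kept. The Pou3f1 call did not hold in every fit that left out 1 library. In S2 day 6 against A2S day 6, Klf2 was lower (29.3 ± 11.3 CPM, against 168 ± 13.0 CPM; -2.55 ± 0.20, adjusted p = 1.06e-10), as was Mycn (-1.38 ± 0.23, adjusted p = 6.47e-05), and Sox11 was higher (1.90 ± 0.16, adjusted p = 4.83e-10).

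**Figure D5:**
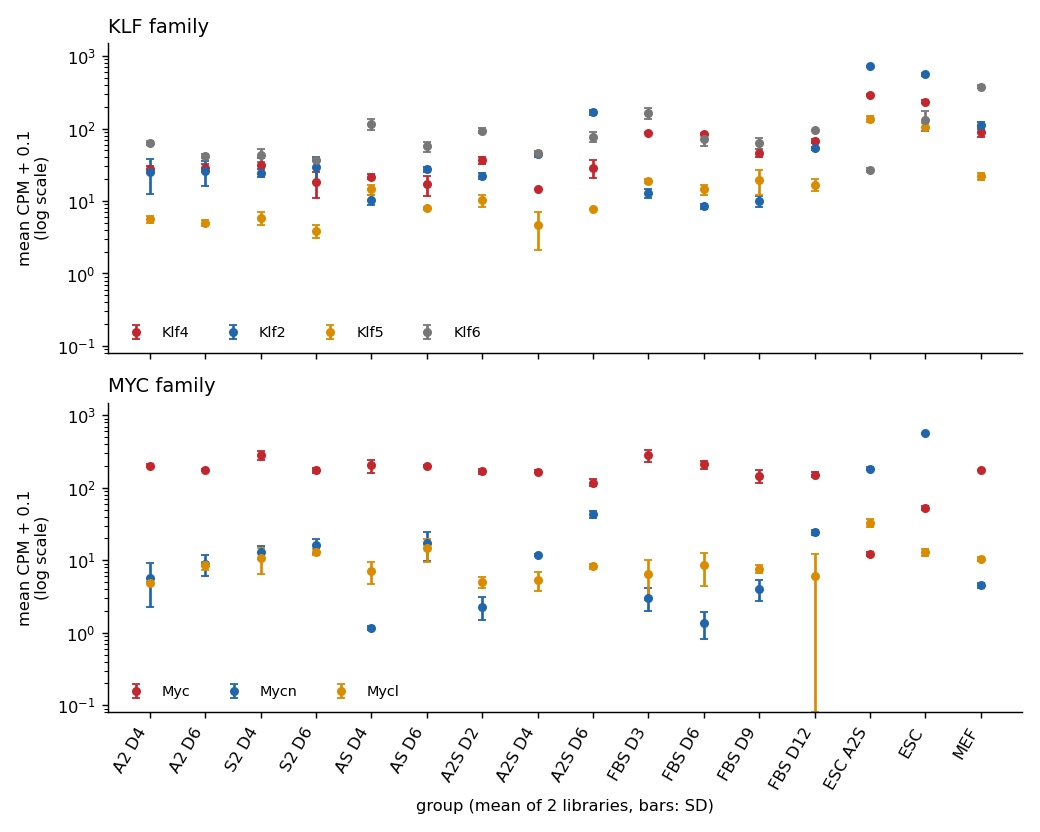
Mean level of KLF genes (Klf4, Klf2, Klf5, Klf6) and MYC genes (Myc, Mycn, Mycl) in each group, as CPM + 0.1 on a log axis, with SD (n = 2). In the A2S course Klf2 is lowest at day 2 and Klf4 at day 4, and Mycn is at 566 ± 7.86 CPM in ESCs, against 4.40 ± 0.352 CPM in MEFs, where Myc is at 52.4 ± 3.72 CPM, against 174 ± 0.336 CPM. Counts of different genes are not compared in height, since they are not scaled to length or capture.

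Known partners of Pou5f1 and Sox2 in the ESC network moved where the pair was called, and in some but not all comparisons where it was not. Of 25 partners, 20 were called higher and 1 lower in A2S day 6 against day 4 (median 2.13; over all genes 10.8% higher, 13.8% lower, median -0.01). In FBS day 12 against day 9 the counts were 19 and 0 (median 3.11; over all genes 6.14% and 6.37%, median 0.02), and in S2 day 6 against A2S day 6 0 and 16 (median -2.10; 8.35% and 7.73%, median 0.00). Where neither Pou5f1 nor Sox2 was called, 13 partners were higher and 1 lower in AS day 6 against day 4 (median 1.36; 11.1% of all genes higher), 10 and 2 in A2S day 4 against day 2 (median 0.42; 13.8% higher), and 8 and 1 in S2 day 6 against day 4 (median 0.39; 5.42% higher). The other steps in time without a call on either gene had fewer partners higher: 3, with 4 lower, in FBS day 3 against MEFs (19.8% of all genes higher). FBS day 6 against day 3 had 3 and 2 (18.8%), and day 9 against day 6 had 4 and 1 (4.90%). A2S day 2 against MEFs had 5 and 5 (25.6%). A2 day 6 against day 4, where Sox2 was called and Pou5f1 was not, had 4 and 1 (median 0; 6.74%). Of 14 known targets, which share genes with the partners, 11 were called higher and 1 lower in A2S day 6 against day 4. For these targets the counts were 10 and 0 in FBS day 12 against day 9, and 0 and 11 in S2 day 6 against A2S day 6. In ESCs against MEFs the counts were 22 and 2 of 25 partners, and 13 and 1 of 14 targets, beside 36.3% of all genes higher and 35.5% lower.

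The target Dppa5a, an ESC RNA-binding protein, was at least 137-fold higher in A2S day 6 than at day 4 and had 0 UMIs in S2 day 6, against 469 in A2S day 6. Tdgf1, a co-receptor for Nodal, was at least 98.5-fold higher in FBS day 12 than at day 9. Targets did not all follow the pair: Spp1 (osteopontin) was lower in ESCs than in MEFs (-2.02). Upp1 (uridine phosphorylase) was lower in A2S day 6 than at day 4 (-0.58), but with DESeq2 0 targets were called lower there. The Upp1 call also did not hold in every fit that left out 1 library. In A2S ESCs against ESCs, where neither Pou5f1 nor Sox2 was called, 11 of 25 partners were higher and 6 lower, beside 25.2% and 21.5% of all genes. Tbx3, a T-box factor, was higher there (3.90 ± 0.16) and the RNA-binding Lin28a lower (-3.30 ± 0.19).

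For 28 tested genes known as Myc targets, mostly of ribosome synthesis, counts and Myc did not always go together. In ESCs against MEFs 26 were higher and 1 lower (median 0.85; 36.3% and 35.5% of all genes) while Myc was lower. In A2S day 2 against MEFs 25 were higher and none lower (median 0.86; 25.6% and 24.2% of all genes, median 0.01), with Myc not called. In FBS day 3 against MEFs, where Myc rose, 23 were higher and none lower (19.8% and 20.9% of all genes). The higher count was 14 without MEF replicate A or FBS day 3 replicate A, and with the listed cells kept it was 10, with 1 lower. In A2S day 6 against day 4, 1 was higher and 12 were lower (median -0.30; 10.8% and 13.8% of all genes), or 6 lower without A2S day 6 replicate B, and Myc fell. In A2S ESCs against ESCs 7 were higher and 8 lower (median 0.05), shares near the 25.2% and 21.5% of all genes, beside the Myc difference of -2.10. Without 1 library those counts were 4 to 5 higher and 4 to 6 lower, lowest without ESC replicate A for the higher and A2S ESC replicate A for the lower. Fbl, the rRNA methylase fibrillarin, was higher in FBS day 3 than in MEFs (0.85 ± 0.11, adjusted p = 1.11e-07), Pa2g4, a growth-regulated factor of ribosome assembly, in A2S day 2 (1.26 ± 0.11, adjusted p = 2.51e-11), and Rrp12, an rRNA-processing protein, was lower in A2S day 6 than at day 4 (-0.76 ± 0.17).

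Of 14 tested epithelial genes linked to Klf4, 6 were higher and 1 lower in A2S day 2 against MEFs (median 2.04; 25.6% and 24.2% of all genes), in the comparison in which Klf4 fell. At A2S day 4 against day 2, 11 were higher and 0 lower (median 3.00; 13.8% and 15.7% of all genes), and Klf4 fell. At FBS day 9 against day 6, 8 were higher and 1 lower (median 2.35; 4.90% and 4.47% of all genes), and Klf4 fell. At A2S day 6 against day 4, 10 were higher and 1 lower (median 1.85; 10.8% and 13.8% of all genes), and Klf4 rose. In A2S ESCs against ESCs, 1 was higher and 8 lower (median -1.38; 25.2% and 21.5% of all genes), or 5 lower without ESC replicate B, with Klf4 not called. In FBS day 3 against MEFs the counts were 5 and 0 (19.8% and 20.9% of all genes), in S2 day 6 against A2S day 6 1 and 4 (8.35% and 7.73%), and in ESCs against MEFs 13 and 1 (36.3% and 35.5%). In FBS day 12 against day 9 they were 3 and 1 (6.14% and 6.37%), with 1 higher without FBS day 9 replicate B or FBS day 12 replicate A. Esrp1, an epithelial splicing regulator, was lower in A2S ESCs (-5.26 ± 0.40) and rose at A2S day 6 (3.51 ± 0.44, adjusted p = 7.56e-07).

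Across the 16 group means, the genes most like each member by Pearson r were, of 7538 candidates, Dppa5a (0.979), Dppa4 (0.966) and Trim6 (0.966) for Pou5f1. For Sox2 they were Dppa4 (0.973), Dppa5a (0.967) and Tex19.1 (0.955). For Klf4 they were Gjc1 (0.920), Klf5 (0.920) and Pex19 (0.898), and for Myc Sh3pxd2b (0.963), Clip1 (0.962) and Faxc (0.960). Among the members themselves r was 0.95 for Pou5f1 and Sox2, 0.57 for Pou5f1 and Klf4, 0.63 for Sox2 and Klf4, and -0.82, -0.83 and -0.67 for Myc with Pou5f1, Sox2 and Klf4. The 16 points share their libraries and depth, and the ESC groups are far from the rest, so these values are a description of this set of groups.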

How the data were processed

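The deposited files are tables of UMI counts per gene and cell, 1 table a library, with a list of feeder-cell barcodes from the authors. Per the labels, cells were isolated and libraries made with a droplet 3′ kit; per the submitters' processing notes, bcl2fastq 2.19 and STAR were used on mm10. Whether counting used strand, and which annotation, is not given in the sources used here.

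Here the listed barcodes were dropped and counts of the kept cells were summed per library. One fit of all 32 libraries in edgeR 4.0.16 (R 4.3.3, limma 3.58.1; TMM factors, filterByExpr by group, quasi-likelihood test, group as the only term) gave 23 comparisons and 3 differences of time differences. Adjustment was by Benjamini-Hochberg over all genes tested, and an adjusted p under 0.05 made a call. Standard errors are on the log2 scale, and cells were never used as replicates. Cells with and without a Nanog UMI were summed per library and tested with the library as a block, in libraries with at least 10 cells of each class. Shares of cells were given unthinned and as the expectation after thinning to 1000 UMIs. A fold against a group at 0 uses a floor of 3 UMIs over the group. Intervals on UMI counts and shares are exact at 95% and cover counting error only. Doublets were not called. Medians, shares and figures used Python 3.11.15, numpy 2.4.6, pandas 2.3.3, scipy 1.17.1 and matplotlib 3.10.9.

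The members, the gene lists and the motifs were chosen with earlier results of these data known. Besides the members, the text names the called list gene with the highest and the lowest log2 difference per list and comparison (with at least 20 CPM in its higher group), and the 3 genes with the highest Pearson r per member; other named genes were chosen after their values were seen. The alternatives left out each library, kept the listed cells, took the replicate letter as a block, changed the thinning depth, dropped the count filter, or used RLE factors or DESeq2 1.42.0. The count fits were tested on simulated data.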

Additional observations from a re-analysis of the deposited data

Results flagged for a closer look

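4 differences between time courses passed a direct test. The day 4 to day 6 change in S2 minus that in A2S was -5.56 for Pou5f1 and -1.78 for Klf4 on the log2 scale, and that in AS minus A2S was -5.15 for Pou5f1 and -1.30 for Klf4. Pou5f1 had 3 to 5 UMIs in each day 4 group, so its differences rest on few counts there. With 1 library left out, the S2 difference of Pou5f1 passed in 1 of 8 fits (adjusted p up to 0.388 without S2 day 4 replicate B), the AS difference of Pou5f1 failed without AS day 4 replicate B (0.0862), and the AS difference of Klf4 failed in 4 of 8 fits (up to 0.0933 without A2S day 6 replicate A).

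The barcodes that the authors list as feeder cells entered no main comparison, only the alternative setting that kept them. In A2S ESCs those barcodes held 34 Sox2 UMIs in replicate A, in 17 of 62 listed cells, and 17 Sox2 UMIs in replicate B, in 7 of 36, against 0 in the listed cells of both MEF libraries. In CPM without TMM scaling, their Sox2 level was 49.1 and 39.4, against 628 and 572 in the kept A2S ESCs. Sox2 UMIs were also found in listed cells of MEF cultures, with 9 and 15 in FBS day 3 and 8 and 3 in A2S day 2. The FBS day 3 levels were 5.43 and 14.7 CPM in listed cells, against 0.562 and 0 CPM in kept cells. Over 17 libraries with at least 10 listed cells, 622 listed cells held 2 Pou5f1 UMIs and 91 Sox2 UMIs. Sox2 was higher in the listed than in the kept cells of 5 of these libraries, Klf4 of 12 and Myc of 2.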

How the results depend on the processing

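Of 118 results on the 4 genes, 65 were called, and 40 of those were called under every setting tried, the rise of Pou5f1 and Sox2 at A2S day 6 against day 4 and their drop in each reduced medium at day 6 among them. RLE factors left 117 of 118 on the same side of the threshold, no count filter 115 of 118, DESeq2 109 of 116 and keeping the listed cells 95 of 104. RLE factors, no filter, DESeq2, the replicate block and keeping the listed cells moved no median of all genes by more than 0.0752 (log2). This shift was not measured with a library left out or in the Nanog cells. The cause of the changes was not tested.

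Klf4 at FBS day 12 against day 9 passed with RLE factors (adjusted p = 0.0476), no filter (0.0198) and the listed cells kept (0.0213). The A2 minus A2S time difference of Pou5f1 passed with no filter (0.0448) and DESeq2 (0.0168), and the AS minus A2S one of Sox2 with no filter (0.0409). DESeq2 did not call Pou5f1 at FBS day 12 against day 9 (0.0772), Klf4 at FBS day 12 against MEFs (0.0611), Sox2 at A2 day 6 against day 4 (0.0625), or Sox2 in the Nanog cells of S2 (0.0968), AS (0.325) and FBS day 12 (0.531). With the listed cells kept, Pou5f1 was called lower in A2S ESCs than in ESCs (0.0198), and the Sox2 difference of FBS day 3 from MEFs turned from negative to a called positive 2.40 (0.0310). The same setting ended the calls of Pou5f1 at FBS day 12 against day 9 (0.0593), Klf4 at FBS day 12 against MEFs (0.230) and in S2 against A2S day 6 (0.0634), and Myc at FBS day 3 against MEFs (0.0684), day 6 against day 3 (0.435) and day 9 against day 6 (0.0948).

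DESeq2 called 666 genes, against 1047 with edgeR, in the A2 minus A2S time difference and 942 against 1440 in that of AS. In the Nanog cells it called 121 against 667 for S2, 383 against 1261 for AS and 383 against 960 for FBS day 12.

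With 1 library left out, 476 of 530 results kept their side, and a group left with 1 library was assumed to vary like the others. Of 137 totals of genes called, 62 moved by more than 1.5 times, such as 852 to 1008, against 1655 with all libraries, at FBS day 12 against day 9, and 1758 to 2265, against 3254, at A2S day 6 against day 4. The lowest and highest adjusted p for Klf4 were 0.00196 and 0.121 (A2S day 6 against day 4), 0.0147 and 0.179 (A2 against A2S day 4), 0.00538 and 0.119 (S2 against A2S day 4), 0.00311 and 0.253 (AS against A2S day 6), 0.00849 and 0.546 (S2 against A2S day 6), 0.00597 and 0.455 (S2 day 6 against day 4), 0.0157 and 0.208 (FBS day 12 against MEFs), 0.0132 and 0.0605 (FBS day 9 against day 6), 0.0441 and 0.362 (A2 minus A2S), 0.00423 and 0.0933 (AS minus A2S), and in Nanog cells 0.00291 and 0.0929 (AS) and 5.86e-05 and 0.102 (FBS day 12). For Myc they were 0.0230 and 0.187 (A2S day 6 against day 4), 0.00604 and 0.0710 (A2 against A2S day 6), 0.0169 and 0.132 (S2 against A2S day 6), 0.00117 and 0.0537 (S2 day 6 against day 4), 0.0302 and 0.752 (AS against A2S day 4), 0.00256 and 0.304 (FBS day 6 against day 3), 0.0109 and 0.318 (FBS day 9 against day 6) and 0.0200 and 0.542 (AS minus A2S). For Pou5f1 they were 0.0302 and 1 (A2S day 2 against MEFs), 0.0466 and 0.666 (A2S ESCs against ESCs), 0.0602 and 0.251 (FBS day 12 against day 9), 0.0332 and 0.388 (S2 minus A2S) and 0.0139 and 0.0862 (AS minus A2S). For Sox2 they were 0.00500 and 0.232 (A2 day 6 against day 4) and 0.0338 and 0.930 (AS minus A2S).

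The labels do not say what libraries of different groups with the same replicate letter share. Over 120 pairs of groups the correlation of their deviations ran from -0.278 to 0.184, with 5 above 0.1 and 7 below -0.1. The replicate block changed none of 104 calls on the 4 genes; for Pou5f1 at A2S day 6 against day 4 it gave an adjusted p of 9.41e-09.

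Depth limits what can be said of Pou5f1 where it is low. Outside both ESC groups, A2S day 6 and FBS day 12, no library held more than 3 of its UMIs, so differences among those groups were not detectable at this depth. Unthinned shares of cells differed from the thinned ones by more than the spread between libraries in 63 of 64 cases, and thinning to 2000 UMIs in 50. Keeping the listed cells moved 14.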
